A study of Homo sapiens with 18 samples.

Results

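Control cells of CAL27 and SCC25, a pair of established human squamous carcinoma lines of the tongue, were compared by RNA sequencing. The 4 libraries labelled as controls of these lines were taken from the 18 samples of the series, 2 libraries from each line, and the choice used no measured value. CAL27 control cells were grown in DMEM and carried a control hairpin, as the count columns call them sh Control. SCC25 control cells were grown in DMEM/F12 and are labelled only as control. Both media held fetal bovine serum and antibiotics, both groups were grown without doxycycline, and RNA was enriched for mRNA in both. Cell line, medium, control construct and any difference in library preparation change together between the groups, so their parts in a difference cannot be told apart. The labels do not say that the libraries of a line came from separate cultures, so p-values measure the spread between these libraries, which may be technical.

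The series asks which genes follow EHF, an ETS transcription factor found in epithelia, when its level is lowered in CAL27 or raised with doxycycline in SCC25 and in A253, a salivary gland carcinoma line. The control comparison gives the starting point of the tongue lines before EHF was changed. Libraries with EHF changed were used only to see whether a difference between the lines was found again, and A253 controls (3 libraries) only as a further line.

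Stratified squamous epithelium is built from a basal layer that makes keratins 5 and 14 and is tied to the basement membrane, and from suprabasal layers that change keratins, gain desmosomes and cross-link a cornified envelope. TP63, SOX2, PAX9, GRHL and ZNF750 are among the transcription factors that set up this programme, and the ETS factors EHF, ELF3 and ELF5 act in its differentiating layers. Squamous carcinoma lines keep parts of the programme to different degrees, often with gains and losses of chromosome segments and with genes silenced in single lines.

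Library totals were 9018351 and 19962159 counts in CAL27, and 15965279 and 14811169 counts in SCC25. Libraries of a line were alike, with Pearson's r across genes of 0.9966 in CAL27 and 0.9974 in SCC25 on the log2 scale, against 0.8834 between the first libraries of each line. Genes are not independent replicates, so these values only describe the libraries. Squamous keratinocyte markers were found in both lines. All 20 were tested, and their summed level per transcript length was 8473 and 8616 TPM in CAL27 and 18966 and 18815 TPM in SCC25. KRT5 made up a large part of these sums, with 3714 and 3794 TPM in CAL27 and 5615 and 5591 TPM in SCC25. KRT14 had 822 and 890 TPM in CAL27 and 5913 and 5871 TPM in SCC25. The sums do not give the level of each marker, and SOX2 was low in both lines. None of the 20 was at 0 in either line. Levels below are CPM, that is counts per 1000000 of the scaled library total. A difference is the log2 ratio of CAL27 over SCC25 with its standard error, and a gene is called higher or lower when edgeR's quasi-likelihood test gave a Benjamini-Hochberg adjusted p under 0.05.

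Most genes differed between the lines. Of 14725 genes tested, 5530 were higher in CAL27 and 5865 were lower (77.4% in all), and in 12881 (87.5%) the ranges of the lines did not overlap. At least a 2-fold difference was called for 4897 genes, 33.3% of those tested, of which 2126 (14.4%) were higher in CAL27 and 2771 (18.8%) were lower. With genes at 0 counts in 1 line set to a bound of 3 counts over its libraries, 355 of them differed by at least 32-fold. The median difference over all genes tested was -0.01. With differences this common, the count of any gene list is read beside those shares.

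**Figure D1:**
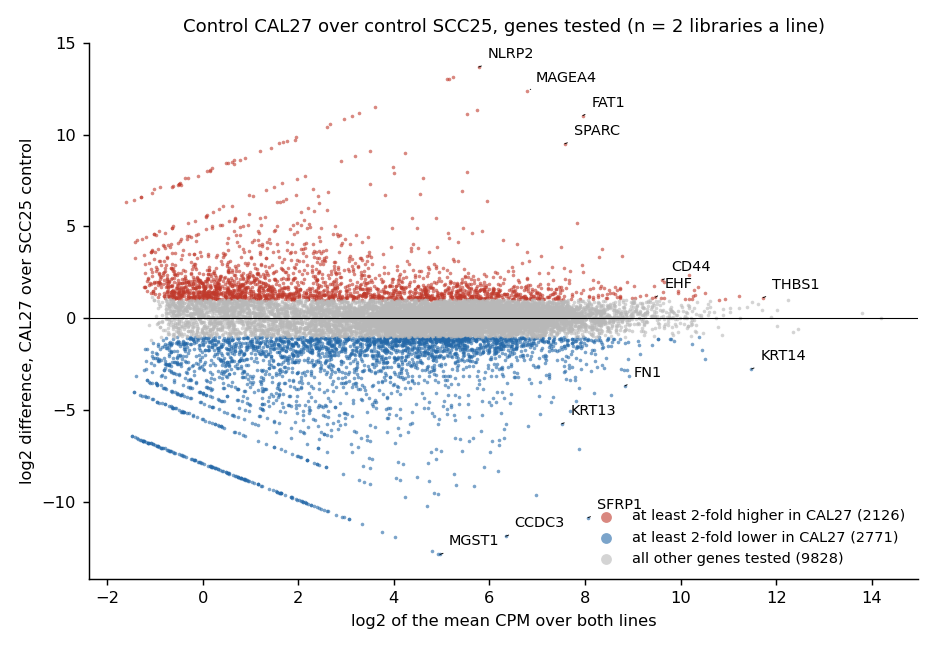
The log2 difference of control CAL27 over control SCC25 (vertical axis) is plotted against the log2 of the mean CPM over both lines (horizontal axis), 1 point for each of the 14725 genes tested. The 2126 genes at least 2-fold higher in CAL27 and the 2771 at least 2-fold lower run through the whole range of levels; the straight outer lines of points are genes with 0 or very few counts in 1 line, whose fitted values depend on a prior count.

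EHF itself stood higher in CAL27. It had 956 and 999.8 CPM in CAL27, against 463 and 421 CPM in SCC25, a difference of 1.15 ± 0.07 (adjusted p = 8.4e-25). The libraries of the lines were far apart, and A253 controls were lower than both, at 83.7 ± 4.4 CPM (SD, n = 3) on a scale joint to all 3 lines. Of 21 ETS factors tested, 3 were at least 2-fold higher in CAL27 and 6 were lower, with a median of -0.64. ELF3, the close relative of EHF, was the most raised of them in CAL27, at 36.1 and 40.6 CPM there and 8.32 and 7.52 CPM in SCC25. ELF5, another member of that group, was not tested, with under 1 CPM in every library. ETS factors known from blood and vessel cells were lower in CAL27: FLI1 had 0.11 and 0 CPM in CAL27 and 39.1 and 35.7 CPM in SCC25, and ERG had 0.989 and 1.02 CPM in CAL27 and 12.6 and 11.6 CPM in SCC25. FLI1 rested on 1 count in both CAL27 libraries together. ETS1, widely made in invasive carcinomas, had 22.6 and 19.4 CPM in CAL27 and 69.2 and 64.7 CPM in SCC25.

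Keratins of the upper layers were mostly lower in CAL27. Of 19 tested keratins of suprabasal, stressed or simple epithelium, 13 were at least 2-fold lower in CAL27 and 4 were higher, against 18.8% and 14.4% of all genes, and the median difference was -3.13. KRT13, the keratin of the suprabasal layers of oral mucosa, had 6.16 and 6.87 CPM in CAL27 and 367 and 349 CPM in SCC25 (difference -5.75 ± 0.09). KRT19 had 1.1 and 0.662 CPM in CAL27 and 125 and 132 CPM in SCC25, and KRT7, a keratin of ducts and glands, had 6.38 and 6.42 CPM in CAL27 and 127 and 129.9 CPM in SCC25. Their CAL27 and SCC25 libraries did not come near each other. KRT16 and KRT6A, induced in wounded and activated keratinocytes, were lower as well. KRT16 had 30.6 and 31.6 CPM in CAL27 and 274 and 272 CPM in SCC25, and KRT6A had 622 and 658 CPM in CAL27 and 2010.5 and 2315 CPM in SCC25. KRT6A, KRT6B and KRT6C are near-identical, so reads may be split among them by the counting. KRT8 and KRT18, which pair in simple epithelium, went the other way to KRT7 and KRT19. KRT8 had 640.4 and 632 CPM in CAL27 and 199 and 225 CPM in SCC25, its partner KRT18 had 662 and 633 CPM in CAL27 and 196 and 221 CPM in SCC25, and KRT80, found near desmosomes, had 117 and 106 CPM in CAL27 and 4.6 and 3.52 CPM in SCC25 (difference 4.76 ± 0.11).

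The basal layer genes divided. KRT5 was among the most abundant mRNAs in both lines and only moderately lower in CAL27, with 4381 and 4658 CPM there and 6527 and 6836 CPM in SCC25, while its partner KRT14 was lower by -2.77 ± 0.08, with 689 and 776 CPM in CAL27 and 4883 and 5100.04 CPM in SCC25. Per transcript length, KRT14 ranked 4th of all genes in SCC25 and 143rd in CAL27. Of 19 tested genes of basal keratins and hemidesmosomes none was at least 2-fold higher in CAL27 and 5 were lower, among them the integrin subunits ITGB1 (505 and 529 CPM in CAL27 and 2353 and 2423 CPM in SCC25) and ITGA5 (61.3 and 67.5 CPM in CAL27 and 322 and 319 CPM in SCC25) and the laminin chain LAMA3 (244 and 228 CPM in CAL27 and 893 and 914 CPM in SCC25). Of the 20 squamous identity genes, 10 were at least 2-fold lower in CAL27 and none at least 2-fold higher, with a median of -0.86. TP63, the master factor of the basal layer, had 336 and 347 CPM in CAL27 and 579.6 and 545 CPM in SCC25 (difference -0.72 ± 0.06), a smaller gap than those of KRT14 and DSG3.

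Several genes of desmosomes, which rivet keratinocytes together, were lower in CAL27. The desmosomal cadherin DSG3 had 109 and 114 CPM in CAL27 and 809.6 and 763 CPM in SCC25 (difference -2.81 ± 0.07). DSC3, its partner, had 90.8 and 88 CPM in CAL27 and 597 and 565 CPM in SCC25, and the plaque protein PKP1 had 56.4 and 60.5 CPM in CAL27 and 362 and 337 CPM in SCC25. In each, every SCC25 library stood several-fold above both CAL27 libraries. DSP, the plaque protein that holds keratin filaments, was lower by -1.26 ± 0.07, while the plaque proteins PKP2 (0.58 ± 0.07) and PKP3 (0.49 ± 0.06) were slightly higher. Tight junction genes were among the junction genes at least 2-fold higher in CAL27. CLDN4 had 78.9 and 78.4 CPM in CAL27 and 14.2 and 14.6 CPM in SCC25. CGN had 19.5 and 19 CPM in CAL27 and 3.42 and 2.17 CPM in SCC25, and CLDN1 had 453 and 514 CPM in CAL27 and 174 and 132 CPM in SCC25. Over 42 tested junction genes, 15 were higher in CAL27 and 23 lower, against 37.6% and 39.8% of all genes. At least a 2-fold difference was called for 5 higher and 16 lower, against 14.4% and 18.8%. Their median over the 42 was -0.47. The gap junction gene GJB6 was lower as well, with 6.82 and 7.79 CPM in CAL27 and 152 and 149.7 CPM in SCC25. The epithelial cadherin CDH1 hardly differed, at 269 and 252 CPM in CAL27 and 217 and 204 CPM in SCC25.

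The transcription factors of squamous epithelium were mostly lower in CAL27, with a median of -1.53. Of 31 tested, 20 were at least 2-fold lower and 3 at least 2-fold higher. PAX9, needed for oral and tongue papillae, had 3.63 and 4.23 CPM in CAL27 and 36.3 and 34.2 CPM in SCC25. ZNF750, a driver of terminal differentiation, had 1.43 and 2.19 CPM in CAL27 and 12.5 and 9.96 CPM in SCC25, and IRX4 had 2.31 and 3.31 CPM in CAL27 and 26.7 and 28.4 CPM in SCC25. MAF had no count in CAL27, against 9.01 and 8.88 CPM in SCC25. SOX2 was low in both lines, with 3.85 and 4.18 CPM in CAL27 and 14.7 and 12.3 CPM in SCC25. The 3 factors at least 2-fold higher in CAL27 were ELF3, EHF and RUNX1. RUNX1 had 67.8 and 56.4 CPM in CAL27 and 25.8 and 27.1 CPM in SCC25. The cornified envelope genes that these factors act on were mixed: 8 of 24 were at least 2-fold higher in CAL27 and 8 lower. TGM1, the cross-linking enzyme of the envelope, had 2.42 and 2.49 CPM in CAL27 and 74.7 and 67.8 CPM in SCC25, while the lipid transporter ABCA12 had 15.5 and 16.4 CPM in CAL27 and 0.807 and 1.15 CPM in SCC25 and the envelope precursor SCEL had 16 and 17.5 CPM in CAL27 and 2.79 and 3.05 CPM in SCC25. Periplakin (PPL) did not pass the test, at 151 and 153 CPM in CAL27 and 153 and 142 CPM in SCC25.

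**Figure D2:**
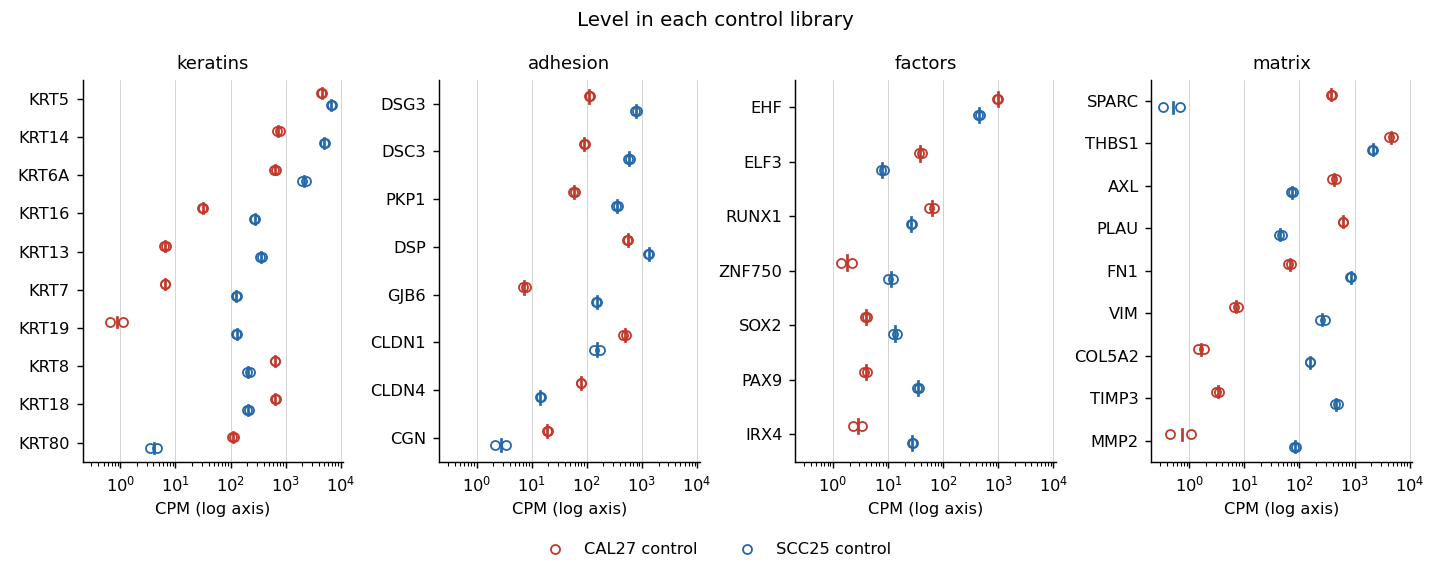
CPM in each control library (horizontal log axis) of keratins, adhesion genes, transcription factors and matrix genes, with CAL27 in red above SCC25 in blue for each gene; circles are the 2 libraries of a line and the vertical bar is their mean. The circles of a line nearly coincide for most genes, and the lines are apart in both directions, as in KRT19 (near 1 CPM in CAL27, over 100 in SCC25) and SPARC (over 300 in CAL27, under 1 in SCC25).

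Matrix and mesenchymal genes did not move as a block. Of 43 tested, 11 were at least 2-fold higher in CAL27 and 17 lower, with a median of -0.60. SPARC, a matrix glycoprotein of wounds and tumour stroma, had 374 and 388 CPM in CAL27 and 0.683 and 0.339 CPM in SCC25 (difference 9.50 ± 0.13). The receptor kinase AXL had 458 and 390.5 CPM in CAL27 and 70.7 and 75.5 CPM in SCC25, and the matricellular protein THBS1, already abundant in SCC25, had 5016 and 4256 CPM in CAL27 and 2090.2 and 2178 CPM in SCC25. In contrast, vimentin (VIM) had 7.8 and 6.57 CPM in CAL27 and 232 and 286 CPM in SCC25, fibronectin (FN1) had 69.8 and 62.4 CPM in CAL27 and 850.2 and 843 CPM in SCC25, and the fibrillar collagen COL5A2 had 1.43 and 1.83 CPM in CAL27 and 158 and 155 CPM in SCC25. Fibroblast markers were lower in CAL27 for 7 of the 7 tested of 9, with a summed level of 5.21 and 4.85 TPM in CAL27 and 84.4 and 71.5 TPM in SCC25. None of the 9 was at 0 in either line, though THY1 had under 1 CPM in all 4 libraries. LUM, a fibroblast proteoglycan, had 3.08 and 3.41 CPM in CAL27 and 58.6 and 52.3 CPM in SCC25, and DCN had 0.33 and 0.153 CPM in CAL27 and 21 and 18.2 CPM in SCC25. Whether cells of that kind have a part in the collagen differences was not tested.

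Laminin chains of the basement membrane differed in both directions. LAMA1, a laminin chain usual in embryonic basement membrane, had 0.33 and 0.305 CPM in CAL27 and 254 and 245 CPM in SCC25 (difference -9.60 ± 0.14). LAMB2 went the other way, with 36.1 and 39.4 CPM in CAL27 and 2 counts in all in SCC25. FAT1, a giant cadherin often mutated in head and neck cancer, had 528 and 463 CPM in CAL27 and 0.248 and 0.203 CPM in SCC25, a difference of 11.04 ± 0.15. Its SCC25 libraries were close to silence.

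More proteases and inhibitors were lower in CAL27 than higher: 27 of 47 were at least 2-fold lower in CAL27 and 9 were higher, with a median of -1.40. TIMP3, the matrix-bound metalloprotease inhibitor, had 3.08 and 3.46 CPM in CAL27 and 492 and 438 CPM in SCC25 (difference -7.12 ± 0.10). MMP2, the gelatinase that stromal cells make in quantity, had 0.44 and 1.07 CPM in CAL27 and 88 and 78.5 CPM in SCC25. The kallikreins that shed the outermost skin cells were lower in CAL27 together, with KLK5 at 55.4 and 59.5 CPM in CAL27 and 222 and 239.7 CPM in SCC25 and KLK7 at 1.98 and 2.6 CPM in CAL27 and 31.4 and 31 CPM in SCC25. Plasminogen activators were higher. PLAU, urokinase, had 621 and 606 CPM in CAL27 and 42.4 and 47.6 CPM in SCC25, a difference of 3.77 ± 0.07, and PLAT, tissue plasminogen activator, had 48.4 and 54.9 CPM in CAL27 and 6.71 and 7.66 CPM in SCC25.

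Of 44 tested genes of the TGFb and BMP pathways, 19 were at least 2-fold lower in CAL27 and 5 higher, with a median of -0.64. SMAD4, the mediator that both pathways share, had 16 and 16.2 CPM in CAL27 and 81.2 and 77.6 CPM in SCC25 (difference -2.30 ± 0.09). The ID genes, direct targets of BMP signalling, were all lower in CAL27. ID1 had 41.3 and 44.5 CPM in CAL27 and 384 and 417 CPM in SCC25, ID2 had 0.66 and 0.662 CPM in CAL27 and 28.9 and 28.9 CPM in SCC25, ID3 had 44.5 and 44.9 CPM in CAL27 and 244 and 239.9 CPM in SCC25 and ID4 had 0.55 and 0.305 CPM in CAL27 and 30.4 and 26.8 CPM in SCC25. LTBP1, which stores latent TGFb in matrix, had 8.68 and 8.5 CPM in CAL27 and 95.5 and 108 CPM in SCC25, and the BMP antagonist GREM1 had no count in CAL27, against 8.57 and 9.22 CPM in SCC25. FST, an activin antagonist, was higher in CAL27, with 337 and 322 CPM in CAL27 and 48.4 and 50.3 CPM in SCC25. SMAD4 lies on chromosome 18, where the median difference over 203 tested genes was -0.54, the lowest of any chromosome.

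In the Wnt pathway 7 of 38 tested genes were at least 2-fold higher in CAL27 and 11 were lower. SFRP1, a secreted Wnt antagonist that is methylated in many carcinomas, had 0.22 and 0.305 CPM in CAL27 and 539.96 and 528 CPM in SCC25, a difference of -10.86 ± 0.14. The receptor LGR4 was higher in CAL27, with 227 and 216 CPM in CAL27 and 40.3 and 38.4 CPM in SCC25, as was FZD3, with 17.4 and 18.3 CPM in CAL27 and 1.55 and 2.1 CPM in SCC25. In the Notch pathway 2 of 26 were at least 2-fold higher and 6 at least 2-fold lower. JAG2 had 54.2 and 49 CPM in CAL27 and 126 and 129 CPM in SCC25. EGFR, the receptor on which many squamous carcinomas depend, did not pass the test, with 446 and 401 CPM in CAL27 and 487 and 412 CPM in SCC25. Of 23 tested genes of ERBB and other growth factor receptors and their ligands, 5 were at least 2-fold higher in CAL27 and 5 lower. The ERBB ligands went both ways, with EPGN at 0.55 and 0.764 CPM in CAL27 and 4.66 and 4.54 CPM in SCC25 and NRG4 at 1.65 and 0.815 CPM in CAL27 and 4.84 and 5.9 CPM in SCC25, but NRG1 and EREG higher in CAL27: NRG1 had 159 and 154 CPM in CAL27 and 41.9 and 37.8 CPM in SCC25, and EREG had 60.4 and 59.3 CPM in CAL27 and 20.9 and 20.7 CPM in SCC25. Of 20 genes that answer ERK activity 3 were at least 2-fold higher and 7 lower, with DUSP4 at 39.9 and 35.8 CPM in CAL27 and 2.67 and 3.25 CPM in SCC25 and SPRY4 at 1.65 and 1.43 CPM in CAL27 and 7.2 and 8.81 CPM in SCC25. Of 23 tested AP-1 and immediate early genes 12 were at least 2-fold lower in CAL27 and 1, FOSL1, at least 2-fold higher. FOSL1 had 56.1 and 46.2 CPM in CAL27 and 7.83 and 7.46 CPM in SCC25. JUNB had 43.8 and 44 CPM in CAL27 and 333 and 334 CPM in SCC25 and BTG2 had 3.85 and 3.26 CPM in CAL27 and 89.5 and 90.1 CPM in SCC25. JUNB sits in a run of 11 neighbours on chromosome 19 that were all lower in CAL27.

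Interferon-stimulated genes as a group were near the background, 6 of 49 at least 2-fold higher in CAL27 and 9 lower, with a median of -0.16. MX1 and MX2, dynamin-like proteins that block viruses, were the exceptions in size. MX1 had 71.1 and 79.99 CPM in CAL27 and no count in SCC25, at least 794-fold higher against a floor of 3 counts over both SCC25 libraries. MX2 had 8.02 and 7.54 CPM in CAL27 and also no count in SCC25. Both lie in the chromosome 21 stretch described below. IRF9, a subunit of the factor that drives these genes, had 18.9 and 18.7 CPM in CAL27 and 86.6 and 90.4 CPM in SCC25, and IFI27 had 48.3 and 58.6 CPM in CAL27 and 301 and 349 CPM in SCC25.

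Of 29 tested genes of antigen presentation 10 were at least 2-fold higher in CAL27 and 5 lower. Genes of class II presentation were among the higher ones: CD74, the class II chaperone, had 88.6 and 95.3 CPM in CAL27 and 0.497 and 0.203 CPM in SCC25, HLA-DRA had 27 and 36.8 CPM in CAL27 and 0.186 and 0.0678 CPM in SCC25, and their activator CIITA had 14 and 12.8 CPM in CAL27 and 1.12 and 1.02 CPM in SCC25. The class I heavy chains HLA-B and HLA-C were lower. HLA-B had 87.9 and 105 CPM in CAL27 and 863 and 876 CPM in SCC25, and HLA-C had 272 and 279 CPM in CAL27 and 658 and 687 CPM in SCC25. B2M, the light chain, differed little, by -0.39 ± 0.07. HLA genes are highly variable and alike, so reads may be assigned unequally between lines by the authors' mapping. ERAP2, which trims peptides for class I, had 175 and 184 CPM in CAL27 and 9.88 and 11.9 CPM in SCC25. Several leukocyte markers were sparse. PTPRC, the marker of all leukocytes, had at most 0.305 CPM in any library. MS4A1 was at 0 in both lines, and CD3D was at 0 in CAL27 and had 1 count in SCC25. Of the 5 leukocyte markers tested, 2 were at least 2-fold higher in CAL27 and 2 lower. LAPTM5 was among the higher ones, with a mean of 12.3 CPM in CAL27 and 4.82 CPM in SCC25 on the scale joint to all 3 lines. The 10 markers summed to 54.7 and 54.1 TPM in CAL27 and 272 and 264 TPM in SCC25, and CD68, a lysosomal protein that many cell types make, held most counts.

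Among cytokines, chemokines and NF-kB genes, 13 of 47 were at least 2-fold higher in CAL27 and 13 lower. IL6 had 41.1 and 40.1 CPM in CAL27 and 0.745 and 1.08 CPM in SCC25, LIF had 37.5 and 39.1 CPM in CAL27 and 2.79 and 2.71 CPM in SCC25, and CSF2 had 14 and 11.6 CPM in CAL27 and 0.497 and 0.542 CPM in SCC25. The monocyte attractant CCL2 had 12.4 and 17.3 CPM in CAL27 and 1 count in all in SCC25. The T cell attractants CXCL10 and CXCL11 were lower in CAL27, with CXCL11 at 6.27 and 7.59 CPM in CAL27 and 61.5 and 64.3 CPM in SCC25, and so was CXCL14, with 0.769 and 0.204 CPM in CAL27 and 20.7 and 23.4 CPM in SCC25. NFKBIA, the inhibitor that NF-kB induces, had 176 and 196 CPM in CAL27 and 538 and 524 CPM in SCC25. Of 27 tested genes of mucosal defence 6 were at least 2-fold higher and 12 lower. NOD2, a sensor of bacterial cell wall, had 0.22 and 1.22 CPM in CAL27 and 28.6 and 26.8 CPM in SCC25. TLR3, a sensor of double-stranded RNA, had 6.82 and 6.82 CPM in CAL27 and no count in SCC25. S100A9, a subunit of calprotectin, had 105 and 138 CPM in CAL27 and 493 and 454 CPM in SCC25.

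Of 29 tested cell cycle inhibitors and D cyclins 8 were at least 2-fold higher in CAL27 and 7 lower, with a median of 0.11. CDKN2A, which encodes p16 and ARF, had 6.93 and 8.25 CPM in CAL27 and 0.248 and 0.339 CPM in SCC25. CDKN1A, which encodes p21, was lower in CAL27, with 16.2 and 16 CPM in CAL27 and 36 and 36.5 CPM in SCC25. MTAP, the neighbour of CDKN2A, had 179 and 182 CPM in CAL27 and 39.4 and 40.6 CPM in SCC25, while CDKN2B, on the other side, had 18.1 and 15.2 CPM in CAL27 and 38.9 and 31.7 CPM in SCC25. Of 44 tested S phase genes 31 were higher in CAL27 (background 37.6%) and 5 lower (background 39.8%). At least a 2-fold difference was called for 10 of them, all higher, with a median of 0.58. ORC1, of the origin recognition complex, had 78.2 and 83.6 CPM in CAL27 and 28.4 and 28.9 CPM in SCC25. Mitotic genes were closer, with 3 of 46 at least 2-fold higher and a median of 0.18. CCNB1, cyclin B1, had 544 and 569.8 CPM in CAL27 and 246 and 259.6 CPM in SCC25. MYC had 159 and 164 CPM in CAL27 and 507 and 485 CPM in SCC25 and CCND1 had 512 and 452 CPM in CAL27 and 700.3 and 673 CPM in SCC25. The 11q13 segment is often amplified in head and neck carcinoma. There, 4 of 10 tested genes were at least 2-fold lower in CAL27 and 1, MYEOV, at least 2-fold higher. MYEOV had 6.93 and 5.8 CPM in CAL27 and 0.0621 and 0.0678 CPM in SCC25. PPFIA1 had 129 and 130.2 CPM in CAL27 and 440.5 and 434 CPM in SCC25, FADD had 70.7 and 66.7 CPM in CAL27 and 227 and 239 CPM in SCC25, ANO1 had 25.9 and 23.3 CPM in CAL27 and 83.9 and 86.5 CPM in SCC25, and SHANK2 had 6.6 and 6.26 CPM in CAL27 and 31.1 and 30.6 CPM in SCC25.

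Many enzymes that handle oxidants and foreign compounds were lower in CAL27. Of 37 tested xenobiotic enzymes 19 were at least 2-fold lower and 3 higher, with a median of -1.16. MGST1, a microsomal glutathione transferase, had no count in CAL27 and 63.8 and 61.2 CPM in SCC25. GSTP1, the main glutathione transferase of squamous cells, did not pass the test, with 1185 and 1226 CPM in CAL27 and 1157 and 1217 CPM in SCC25. NFE2L2, the NRF2 factor that induces many such enzymes, had 116 and 118 CPM in CAL27 and 352 and 334 CPM in SCC25 (difference -1.55 ± 0.06). Of 37 tested NRF2 targets and aldo-keto reductases 12 were at least 2-fold lower in CAL27 and 3 higher. GPX2 had 3.52 and 2.65 CPM in CAL27 and 111 and 112 CPM in SCC25. GCLC, the catalytic subunit of the enzyme that starts glutathione synthesis, had 86.7 and 84.9 CPM in CAL27 and 328 and 331 CPM in SCC25. Its modifier subunit GCLM had 66.7 and 63.1 CPM in CAL27 and 310.2 and 292 CPM in SCC25. AKR1C1 had 4.18 and 4.94 CPM in CAL27 and 130.2 and 120.4 CPM in SCC25, though AKR1C1 and AKR1C2 are so alike that their reads may be shared.

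Cholesterol synthesis leaned towards CAL27, with 10 of 29 at least 2-fold higher there and 2 lower, and a median of 0.51. STARD4, a carrier of cholesterol, had 35.8 and 44.6 CPM in CAL27 and 6.96 and 6.85 CPM in SCC25. SCD, a fatty acid desaturase, went the other way, with 506 and 604 CPM in CAL27 and 1235 and 1168 CPM in SCC25. Glycolysis genes were higher in CAL27 for 16 of 27 and lower for 6, against 37.6% and 39.8% of all genes, with a median of 0.23. Large differences were few there and in oxidative phosphorylation, with 3 of 27 and 7 of 60 at least 2-fold apart against 33.3% of all genes. GAPDH had 6233 and 6682 CPM in CAL27 and 3096 and 3405 CPM in SCC25. Of 23 hypoxia genes, 5 were at least 2-fold higher in CAL27 and 8 at least 2-fold lower, against 14.4% and 18.8% of all genes. CA9 had 8.35 and 10.5 CPM in CAL27 and 1.37 and 0.881 CPM in SCC25, but its relative CA12 had 3.19 and 1.93 CPM in CAL27 and 158 and 155 CPM in SCC25 and NDRG1 had 34.2 and 41.8 CPM in CAL27 and 722 and 702 CPM in SCC25. HIF1A mRNA itself was higher in CAL27, with 748 and 843 CPM in CAL27 and 350.2 and 334 CPM in SCC25.

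CD44, the hyaluronan receptor, had 1332 and 1210.04 CPM in CAL27 and 307 and 289 CPM in SCC25, while HAS3, which makes hyaluronan, had 6.6 and 7.94 CPM in CAL27 and 115 and 104 CPM in SCC25. HOX genes and cofactors record the position of a tissue in the body. Of 33 tested, 17 were at least 2-fold lower in CAL27 and 1 at least 2-fold higher, with a median of -1.03. HOXC13 had 3.85 and 2.85 CPM in CAL27 and 16.3 and 13.5 CPM in SCC25, and HOXB3 had 0.989 and 0.967 CPM in CAL27 and 7.95 and 10.3 CPM in SCC25.

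**Figure D3:**
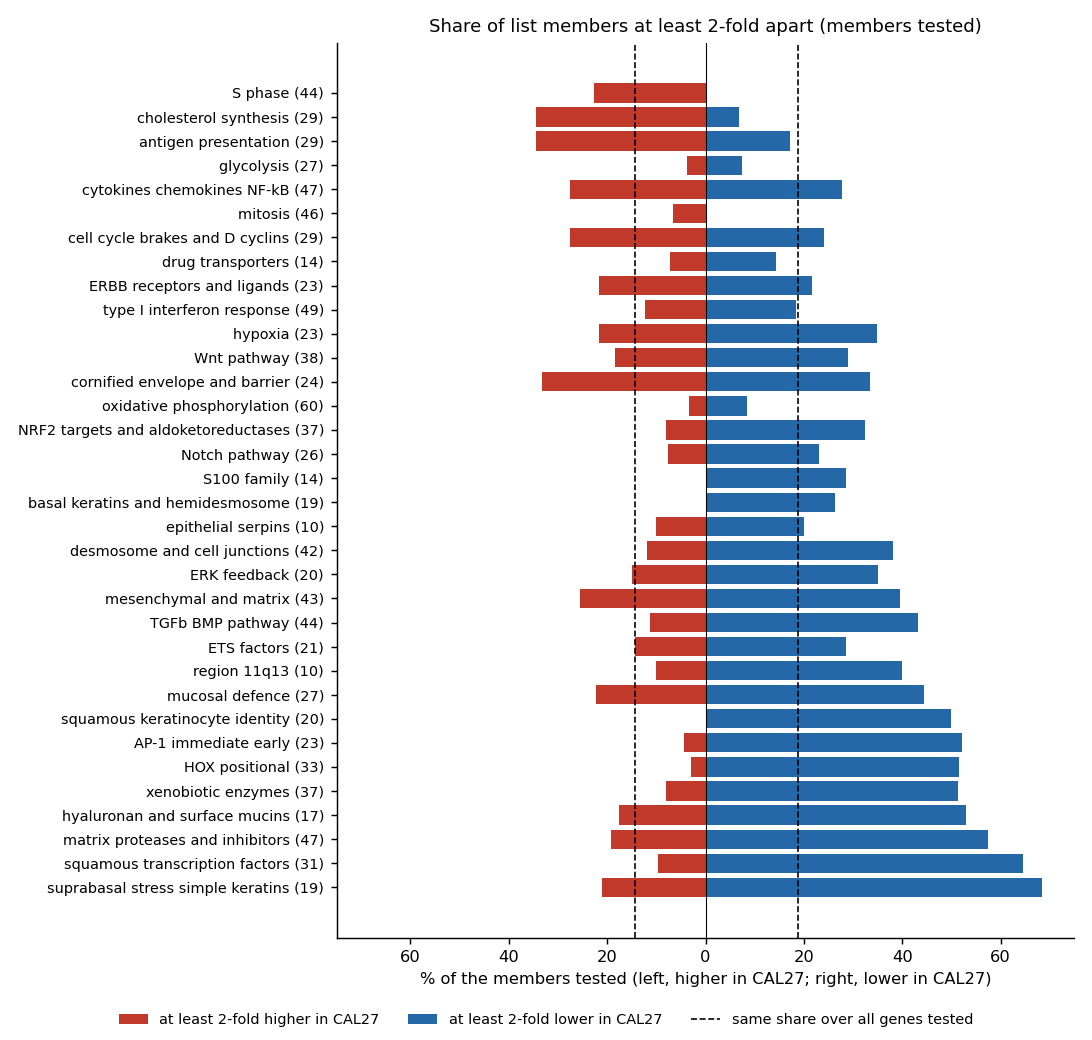
Share of the tested members of each list with at least 10 (number in brackets; a list of a chromosome region that held a gene from elsewhere is left out) that were at least 2-fold higher in CAL27 (red, left) or at least 2-fold lower in CAL27 (blue, right), in % on the horizontal axis, with lists ordered by their median difference. Dashed lines mark the same shares over all genes tested, 14.4% higher and 18.8% lower; S phase is at the top and keratins of suprabasal, stressed or simple epithelium at the bottom.

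Some genes were on in 1 line and near silence in the other. A mean of at least 10 CPM in 1 line with at most 3 counts in all in both libraries of the other was found for 64 genes, 20 on in CAL27 and 44 on in SCC25. This is a description with no test, and it depends on depth, since CAL27 replicate 1 is the shallowest of the 4 libraries. Without CAL27 replicate 2, the deepest, the count was 111. Of the 20 genes on in CAL27, 10 had no count in SCC25, and of the 44 on in SCC25, 17 had no count in CAL27. In A253 controls, 7 of the 20 reached 10 CPM in every library and 8 had at most 3 counts in all. Of the 44 on in SCC25, 8 reached 10 CPM in every A253 library and 22 had at most 3 counts in all.

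Cancer-testis antigens, made in male germ cells and switched on in some tumours, were among the most abundant of the genes on in CAL27. MAGEA4 had 214 and 226 CPM in CAL27 and 1 count in all in SCC25, a ratio of 6854 (exact 95% interval 1229.8 to 270778, counting error only). A253 controls made it too, at 234 ± 10.3 CPM. MAGEA3 had 88.4 and 95.9 CPM in CAL27 and 1 count in SCC25, and MAGEA6 had 69.6 and 68.9 CPM in CAL27 and none in SCC25, and both were at 0 in A253 controls. Of 39 cancer-testis genes on the list, 24 had no count in CAL27 and 23 had none in SCC25. Genes silent in both lines fail the count filter, so a member was tested only if it was on in at least 1 line. The share of tested members that differed is therefore not comparable with that of all genes. Of the 39, 9 were tested and all 9 were at least 2-fold apart, 6 of them higher in CAL27. The exceptions were MAGED1 (1.32 and 1.17 CPM in CAL27 and 147 and 146 CPM in SCC25), which normal tissues make as well, LIN28B, an RNA-binding protein of early embryos (0 and 0.0509 CPM in CAL27 and 22.3 and 19.3 CPM in SCC25), and CSAG1 (0.22 and 0.102 CPM in CAL27 and 1.93 and 1.97 CPM in SCC25). NLRP2, an innate immune and oocyte gene, had 104 and 115 CPM in CAL27 and no count in SCC25, at least 1147-fold higher, and was at 0 in A253 controls.

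Genes on in SCC25 were of other kinds. CCDC3, a secreted protein of vessels and fat, had 1 count in CAL27 and 166 and 158 CPM in SCC25. G0S2, an inhibitor of lipolysis, had no count in CAL27 and 51.4 and 59.4 CPM in SCC25, so it was at least 529-fold lower in CAL27 against the floor of 3 counts over both libraries. It was at 0 in A253 controls. IGFBP2, which binds insulin-like growth factors, had 2 counts in CAL27 and 59.4 and 54.8 CPM in SCC25, and BCHE, butyrylcholinesterase, had 1 count in CAL27 and 51 and 52.3 CPM in SCC25. ANPEP, an aminopeptidase of cell surfaces, had no count in CAL27 and 32.8 and 32.3 CPM in SCC25. UGT1A10, a glucuronidating enzyme, had none in CAL27 and 57.4 and 64.5 CPM in SCC25, but the UGT1A genes share their last exons and their counts cannot be told apart fully. The coding sequence of HIST1H4F resembles those of other histone H4 genes, so some of its reads may be shared. Both IGFBP2 and HIST1H4F were on in A253 controls, at 65.7 ± 5.94 and 261 ± 24 CPM.

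Upstream sequences of the genes on in 1 line were taken from RefSeq for build GRCh38.p14, and their CG dinucleotides were counted. Entries were found for 15 of the 20 genes on in CAL27, 31 of the 44 on in SCC25 and 10320 of the 14725 tested. In the 250 bases before the start, the median number of CG was 11 for genes on in CAL27, 15 for genes on in SCC25 and 20 over all genes tested, with more than 1 start of a gene entered as its median. This is a description of letters only, and no methylation was analysed. The 3 sequences below, all with 1 start, are shown for the copies of MAGEA3 and MAGEA6, for ZBTB21 in the chromosome 21 stretch, and for G0S2, and their capitals mark CG. Over 15115 starts of tested genes, 64.4% held at least the 15 CG of MAGEA3, 7.21% at least the 36 of ZBTB21 and 46.1% at least the 21 of G0S2.
MAGEA3, chrX:152698544-152698793, plus strand: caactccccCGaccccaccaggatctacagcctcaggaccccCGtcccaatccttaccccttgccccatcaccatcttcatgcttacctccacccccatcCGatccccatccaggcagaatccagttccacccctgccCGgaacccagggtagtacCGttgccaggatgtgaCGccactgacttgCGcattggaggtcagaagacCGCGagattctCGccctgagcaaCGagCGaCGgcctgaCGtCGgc
ZBTB21, chr21:42010361-42010610, minus strand: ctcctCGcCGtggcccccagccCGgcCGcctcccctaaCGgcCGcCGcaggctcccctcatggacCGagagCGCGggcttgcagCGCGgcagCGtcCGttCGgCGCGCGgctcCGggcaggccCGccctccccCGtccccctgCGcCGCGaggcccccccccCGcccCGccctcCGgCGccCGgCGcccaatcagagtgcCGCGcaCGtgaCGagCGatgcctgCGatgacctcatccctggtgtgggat
G0S2, chr1:209675162-209675411, plus strand: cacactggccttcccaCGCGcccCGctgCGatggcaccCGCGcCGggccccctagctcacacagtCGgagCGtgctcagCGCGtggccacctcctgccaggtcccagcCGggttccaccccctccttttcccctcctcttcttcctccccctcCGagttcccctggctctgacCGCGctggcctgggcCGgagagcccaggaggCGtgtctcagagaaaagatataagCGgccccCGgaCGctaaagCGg

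The upstream sequence of MAGEA6, at chrX:152769690-152769939 on the minus strand, was identical to that of MAGEA3 in 250 of 250 bases. With copies this close, the split of reads between MAGEA3 and MAGEA6 depends on the mapping, and their values are best read as those of the pair. ZBTB21 had 23.7 and 24.6 CPM in CAL27 and no count in SCC25, and G0S2 showed the opposite.

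Some genes with large differences were neighbours. Taking the 14264 tested genes with a place in the RefSeq annotation in order, 120 runs of at least 4 neighbours were all at least 2-fold apart in 1 direction, 39 higher in CAL27 and 81 lower. They held 622 of the 4897 genes at least 2-fold apart, and the longest had 13. With 18.8% of all genes lower and 14.4% higher by that much, some runs arise without any link to position. More of them would then be lower, and the number to expect was not worked out. Runs of gene families were among them, such as HOXC11 to HOXC4, KLK5 to KLK13 and GBP1 to GBP6, all lower in CAL27, and zinc finger clusters of chromosome 19, which went in both directions. Runs of unrelated genes were there as well.

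The longest runs had 13 neighbours, all higher in CAL27. One went from ANKRD42 to FZD4 on chromosome 11, with a median of 1.73. There PICALM, an adaptor of clathrin-coated vesicles, had 232 and 235 CPM in CAL27 and 108 and 102 CPM in SCC25, and EED, a Polycomb subunit, had 62.2 and 69.1 CPM in CAL27 and 21.7 and 23.7 CPM in SCC25. The other went from DSCAM to SLC37A1 on chromosome 21, and its genes together had 10675 counts in CAL27 and 164 in SCC25. In SCC25, 6 of them had no count and 8 had at most 3. BACE2, a close relative of beta-secretase, had 111 and 103 CPM in CAL27 and 1 count in SCC25. RIPK4, a kinase needed for epidermal differentiation, had 70.02 and 71.6 CPM in CAL27 and none in SCC25, and A253 controls made it at 91.1 ± 2.02 CPM. TMPRSS2, the serine protease that primes influenza and coronaviruses, had 2.64 and 3.16 CPM in CAL27 and none in SCC25. The median difference of the run was 6.31 with genes at 0 counts set to their bound. The tested neighbours on either side, SH3BGR (0.769 and 0.255 CPM in CAL27 and 2.48 and 2.24 CPM in SCC25) and PDE9A (0.22 and 0.102 CPM in CAL27 and 9.32 and 8.74 CPM in SCC25), were lower in CAL27. The last members, TMPRSS3 (1.98) and SLC37A1 (2.36), differed less than the rest, and WDR4, just beyond PDE9A, was higher in CAL27 by 2.26 ± 0.12.

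EHF lies in a run of its own on chromosome 11, where 12 neighbours from C11orf91 to SLC1A2 were at least 2-fold higher in CAL27, with a median of 1.80. CAT, catalase, had 293 and 329 CPM in CAL27 and 69.9 and 72.6 CPM in SCC25, and PDHX, a subunit of pyruvate dehydrogenase, had 428 and 431 CPM in CAL27 and 57.1 and 56.5 CPM in SCC25. CD44, described above, is 1 of the run. SLC1A2, a glutamate transporter, had 52.2 and 44.2 CPM in CAL27 and 0.124 and 0.339 CPM in SCC25. EHF was thus not alone in its higher level, and its difference of 1.15 was below the median of its run. PAMR1, the next tested gene, was near the detection limit in CAL27 at 0.44 and 0.764 CPM and did not pass the test. Beyond it FJX1, TRIM44, LDLRAD3 and COMMD9 were at least 2-fold higher in CAL27 again. C11orf91 was under 2 CPM in every library, and its call was lost in some of the alternatives. On the other side, the tested genes from DEPDC7 to KIAA1549L differed by less than 2-fold, and QSER1 beyond them was higher in CAL27 by 1.23 ± 0.08.

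In libraries where EHF had been lowered in CAL27 and raised in SCC25, the rest of the run stayed. EHF turned, as changing it in this way would bring about, so its turn is no finding about the run. In CAL27 with EHF knockdown, over SCC25 with EHF overexpression, 10 of the 11 genes of the run that were tested were higher in CAL27 by at least 2-fold. EHF itself was the 1 that was lower, by -0.86 ± 0.08 (adjusted p = 3.8e-07), with 479 ± 37 CPM (SD, n = 4) in CAL27 knockdown cells and 895 ± 44.6 CPM (SD, n = 2) in SCC25 overexpressing cells. Without EHF, the median of the run in these libraries was 2.31. C11orf91 was not tested there, so this median and the 1.80 in controls are over different genes and are not to be compared. All 13 genes of the chromosome 21 stretch were higher in CAL27 there too.

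**Figure D4:**
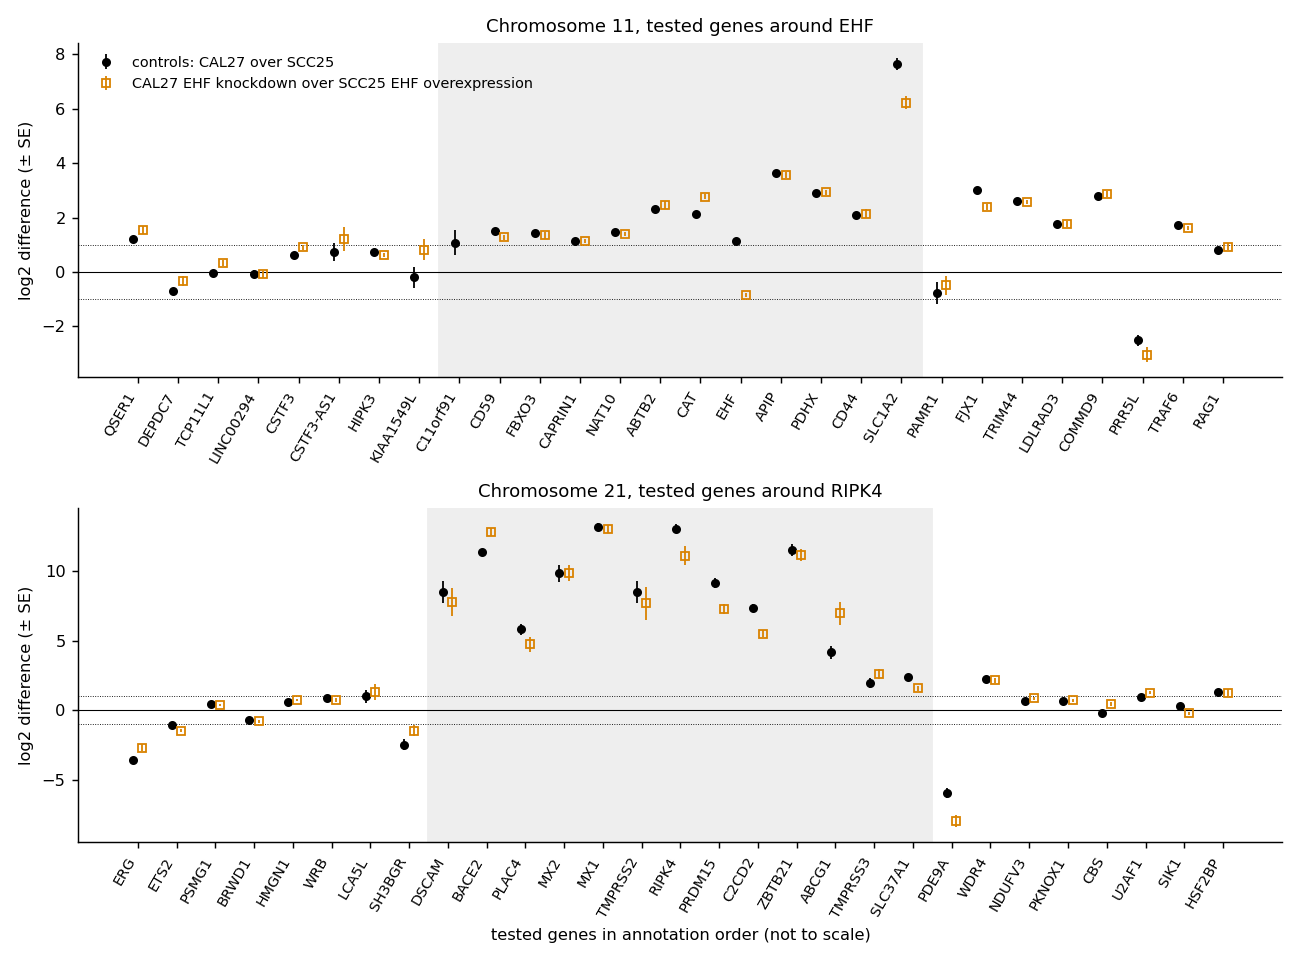
The log2 difference between the lines with its standard error (vertical axis), gene by gene in annotation order (horizontal axis, not to scale), around EHF on chromosome 11 (top) and RIPK4 on chromosome 21 (bottom); filled circles are control libraries and open squares are CAL27 EHF knockdown over SCC25 EHF overexpression. Shading marks the run and dotted lines a 2-fold difference. EHF, the gene that was manipulated, is the only gene of the chromosome 11 run whose square falls below 0.

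Most large differences between the lines were found again across the genome. The manipulated libraries share no library with the controls, but share line and medium, and SCC25 overexpressing cells were grown with doxycycline. There, 10144 of 14423 genes tested (70.3%) differed between the lines, 4545 (31.5%) by at least 2-fold. Of the 4897 genes at least 2-fold apart in controls, 4612 were tested there. Of these 4612, 4262 (92.4%) differed in the same direction at any size and 336 did not pass. In the same direction and by at least 2-fold it was 3674 (79.7% of the 4612). Opposite directions were found for 14. SOX2, BARX2, EPHB3 and PHGDH were lower in CAL27 controls but higher in CAL27 with EHF knockdown. THBS1, EHF, PADI2, PLK2, LAPTM5, TGM2, IGFBP3, EDN1, ZNF812 and ALOX5 did the reverse. In a fit of all 10 libraries, 906 of 14939 genes (6.06%) passed edgeR's quasi-likelihood test of the change in the difference between the lines, the 14 genes of opposite direction among them. The opposite directions of those 14 in the same libraries nearly fixed that outcome in advance.

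Of the 17 suprabasal, stress and simple keratins at least 2-fold apart in controls, 16 were called in the same direction in the manipulated libraries. The same held for 21 of 21 junction genes and 32 of 36 proteases and inhibitors. These calls set no limit on size. The median of the keratin list was -1.60 over members tested in the manipulated libraries, against -3.13 in controls. For junction genes it was -0.44 against -0.47, and for proteases and inhibitors -1.71 against -1.40. Among squamous transcription factors 19 of 22 were called in the same direction, and SOX2, EHF and BARX2 turned. SOX2 had 12.4 ± 1.69 CPM (SD, n = 4) in CAL27 with EHF knockdown and 8.83 ± 0.374 CPM (SD, n = 2) in SCC25 with EHF overexpression. IGFBP3, a binder of insulin-like growth factors, had 712 ± 167 CPM in CAL27 with EHF knockdown and 1499.7 ± 8.44 CPM in SCC25 with EHF overexpression, against 1028 and 1104 CPM in CAL27 and 323 and 317 CPM in SCC25 in controls. TGM2, tissue transglutaminase, had 4.17 ± 2.09 CPM in CAL27 knockdown cells and 18.2 ± 0.893 CPM in SCC25 overexpressing cells, against 21 and 19.3 CPM in CAL27 and 7.83 and 7.32 CPM in SCC25 in controls. Their manipulated means are on the scale joint to all 3 lines.

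**Figure D5:**
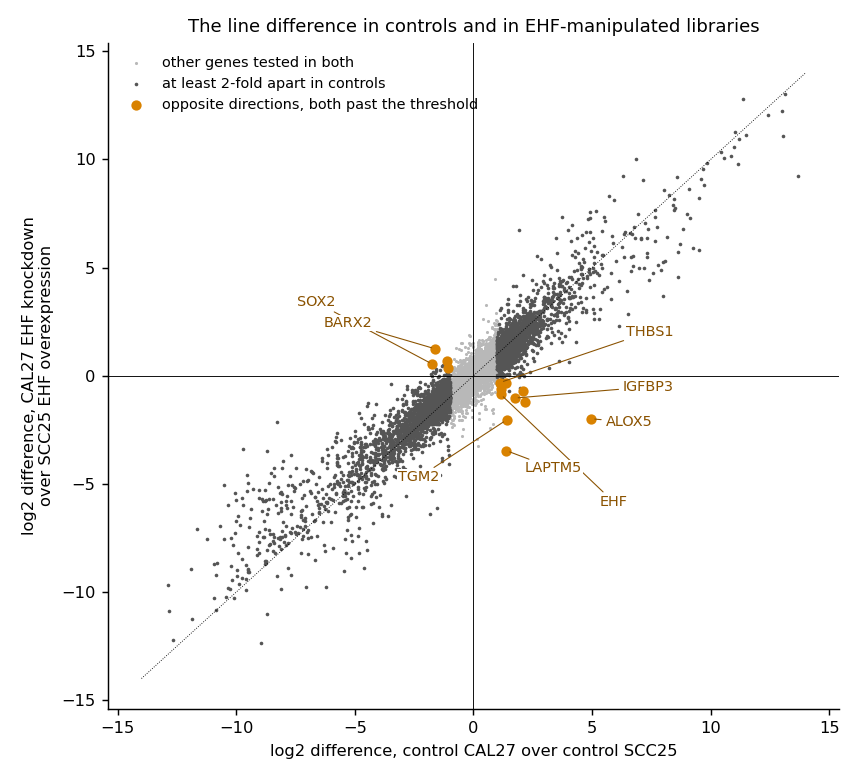
Each point is a gene tested in both comparisons; the horizontal axis is the log2 difference of control CAL27 over control SCC25 and the vertical axis that of CAL27 EHF knockdown over SCC25 EHF overexpression. Points lie along the dotted line of equality, and the 14 genes in orange, EHF among them, have opposite directions past the threshold in both.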

How the data were processed

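RNA enriched for mRNA was prepared with the TruSeq RNA kit, per the labels' protocols. The submitters' processing notes name TopHat2 2.1.1, Bowtie 1.1.1, featureCounts 1.5.3 and DESeq2 1.12.4 with build hg19, without giving each tool's role. Use of strand is not given in the sources used here, so reads of overlapping antisense genes cannot be told apart. The authors deposited raw counts of 23710 gene symbols for each line, and TPM, that is counts per transcript length scaled to 1000000. The deposited SCC25 TPM values had been divided by length 2 times and were not used, so SCC25 levels per length were recomputed from its counts and the lengths implied by the CAL27 tables. Of the CAL27 symbols, 696 were altered and were matched by their place in the table, and implied lengths agreed for 348 of the 348 altered symbols that could be checked. A further 28 symbols had been turned to dates and 2 were repeated. Another 14 columns of values were not used.

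Counts were filtered with filterByExpr, scaled by TMM and tested with the quasi-likelihood test of edgeR 4.0.16 in R 4.3.3, with an adjusted p under 0.05 over all genes tested. The 4 control libraries made the fit for the controls and the 6 manipulated ones their own, and a fit of all 10 libraries tested the change between them. Gene order and upstream sequences came from RefSeq tables of GRCh38.p14, to which 22673 of 23710 symbols were matched. On simulated counts (14573 genes) the test found 48% of genes changed by 0.585 on the log2 scale, 92% at 1 and 100% at 2 or 3, and called 5 of 14373 unchanged genes. The simulation had more spread between libraries than the control fit found, and it changed only 50 genes at each size. These data differ at most genes, so its rates do not carry over directly. Alternatives used DESeq2 1.42.0, limma-voom 3.58.1, other scaling, no filter, other libraries in the fit and each library left out. Intervals and floors cover counting error only.

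Genes and lists were chosen with earlier results of these data known. Genes were named by rule: EHF, the 12 largest differences in each direction with a mean log2 CPM of at least 4, the 10 strongest genes on in 1 line, the 10 highest per length in each line, up to 4 members of each list in each direction, and members of long runs. Others were chosen after their values were seen: TP63, CDH1, SMAD4, ID1, ID3, NFE2L2, GCLC, HLA-C, CSAG1, MYEOV, EPGN, NRG4, PKP2, PKP3, ELF5, the leukocyte markers, THY1, the flanks of the runs, and the genes of opposite direction. Some genes are not reported here.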

Additional observations from a re-analysis of the deposited data

Results flagged for a closer look

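For the 14 genes whose difference between CAL27 and SCC25 had opposite directions in manipulated and control libraries, the change itself passed a test in a fit of all 10 libraries (edgeR's quasi-likelihood test, Benjamini-Hochberg adjusted). The 14 were chosen by their directions in these same libraries, so passing was nearly fixed by the choice and is no separate support. Of 14939 genes in that fit, 906 (6.06%) passed. SCC25 overexpressing cells were also grown with doxycycline, so the parts of doxycycline and EHF cannot be told apart there. EHF, the gene that was manipulated, changed by -2.01, with a difference between the lines of -0.86 in manipulated cells and 1.15 in controls. THBS1, a matricellular protein, changed by -1.43, with -0.31 in manipulated cells (adjusted p = 0.0499) and 1.12 in controls. SOX2, a squamous factor, changed by 2.27, with 0.54 in manipulated cells and -1.73 in controls. LAPTM5, a lysosomal protein of blood cells, changed by -4.85, with -3.46 in manipulated cells and 1.39 in controls. It had 2.93 ± 0.438 CPM in CAL27 with EHF knockdown (SD, n = 4) and 34 ± 1.8 CPM in SCC25 with EHF overexpression (SD, n = 2), and 12.2 and 12.3 CPM in CAL27 and 4.84 and 4.47 CPM in SCC25 in controls. In the other genes the change was 2.83 for BARX2, 1.83 for EPHB3 and 1.40 for PHGDH, which were lower in CAL27 controls. It was -1.76 for PADI2, -1.73 for PLK2, -3.44 for TGM2, -2.77 for IGFBP3, -2.79 for EDN1, -3.37 for ZNF812 and -6.94 for ALOX5, which were higher in CAL27 controls. Some of these rest on low levels, given on the scale joint to all 3 lines. ALOX5 had 0.0704 to 0.128 CPM in SCC25 controls and at most 3.51 CPM in any CAL27 or SCC25 library. ZNF812 had 0.422 to 0.833 CPM in SCC25 controls, and BARX2 had 0.258 to 1.2 CPM in CAL27 controls. The sizes of their changes are therefore uncertain.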

How the results depend on the processing

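The number of genes that differ (11395) was 9572 with DESeq2, 11375 with limma-voom, 11453 with upper-quartile scaling, 11940 with no filter, 10409 with all 10 libraries and 11026 with the controls of 3 lines. It was 10358 to 11208 with 1 library left out, where the lone library of a line is assumed to vary like the other. Replicate numbers are shared by the lines, but deviations of same-numbered libraries hardly agreed (r = 0.0517 over 14725 genes), so the numbers were not taken as pairs. With the replicate block 11516 genes differed, 4901 of them at least 2-fold. Upper-quartile scaling moved the median over all genes by 0.04, and no filter moved it by -0.03. The count of genes on in 1 line (64) was 133 with a limit of 5 CPM, 27 when no count was allowed, and 68 to 111 with 1 library left out. The cause of the last is in part its construction, since fewer libraries hold fewer counts. For named genes 6467 values kept direction and call, 58 lost the call, 7 gained it and 6 turned. Those that turned had not passed the test: RPPH1 was -0.0043 with no filter and -0.037 to 0.073 with 1 library left out, PPL -0.028 to 0.082, EGFR -0.22 to 0.018, and GSTP1 -0.018 with no filter and -0.032 to 0.048. Of 462 list medians under the alternatives 60 moved by more than the SD between replicates and 2 changed sign: genes of ERBB and other receptors were at 0.06 with all 10 libraries, and markers of simple or neural epithelium at -0.34 without CAL27 replicate 1. The call of C11orf91 was lost under 7 alternatives. Depth limits low genes, since the shallowest library, CAL27 replicate 1, held 9018351 counts.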

Other observations

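Calcium-binding S100 genes include alarm signals of the epithelium. Of 14 tested, 4 were at least 2-fold lower in CAL27 and none at least 2-fold higher. S100A14 had 46.6 and 46 CPM in CAL27 and 338 and 331 CPM in SCC25 and S100A8 had 27 and 35.6 CPM in CAL27 and 126 and 118 CPM in SCC25. S100A2, a gene of basal cells, was higher, with 1353 and 1463 CPM in CAL27 and 793 and 936 CPM in SCC25. Of 10 tested epithelial serpins, inhibitors of proteases inside the cell, 1 was at least 2-fold higher in CAL27 and 2 were lower. SERPINB1 had 94.1 and 112 CPM in CAL27 and 33.9 and 34.2 CPM in SCC25, SERPINB5 (maspin) had 108 and 119 CPM in CAL27 and 256 and 261 CPM in SCC25 and SERPINB3 had 31.1 and 47.2 CPM in CAL27 and 116 and 119.6 CPM in SCC25. Of 17 tested genes of hyaluronan and surface mucin sugars, 3 were at least 2-fold higher in CAL27 and 9 lower. The mucin-branching enzyme GCNT3 had 0.66 and 1.02 CPM in CAL27 and 98.8 and 88.9 CPM in SCC25. TNFAIP6, which binds hyaluronan, had 0.22 and 0 CPM in CAL27 and 22.9 and 22.2 CPM in SCC25. Drug transporters were closer, with 1 of 14 at least 2-fold higher and 2 at least 2-fold lower. ABCA1, which exports cholesterol, had 61.8 and 53.8 CPM in CAL27 and 279 and 282 CPM in SCC25, while its relative ABCG1 had 3.3 and 2.9 CPM in CAL27 and 0.0621 and 0.271 CPM in SCC25.

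Genes of saliva proteins, neighbours on chromosome 4, were read in CAL27 control cells. STATH (statherin) had 18.7 and 16.3 CPM in CAL27 and no count in SCC25. HTN3 and HTN1, the histatins, had 14.4 and 9.72 CPM and 10.00 and 5.3 CPM in CAL27 and no count in SCC25, and SMR3B had 4.18 and 2.09 CPM and none in SCC25. HTN3, HTN1 and SMR3B were chosen after their values were seen. In A253 controls, STATH had 1 count in all and HTN3 had 0. The 9 markers of salivary gland and myoepithelium summed to 76.3 and 60.3 TPM in CAL27 and 8.96 and 7.58 TPM in SCC25. Of the 5 tested, 3 were at least 2-fold higher in CAL27, 1 was at least 2-fold lower and 1 did not pass the test. The acinar markers PRB1 and AQP5 were at 0 or nearly so in every library. Endothelial markers were low in both lines, at 3.76 and 2.91 TPM in sum in CAL27 and 3.32 and 2.75 TPM in SCC25. CDH5 was higher in CAL27, with 6.05 and 4.68 CPM in CAL27 and 0 and 0 CPM in SCC25, and PECAM1, VWF and KDR were lower. Markers of simple or neural epithelium summed to 8.12 and 7.91 TPM in CAL27 and 7.39 and 7.14 TPM in SCC25. The intestinal factor CDX2 was among them, with 0 and 0 CPM in CAL27 and 2.42 and 2.58 CPM in SCC25.

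Zinc finger genes of chromosome 19 formed runs in both directions. From ZNF486 to ZNF429, 9 neighbours were at least 2-fold higher in CAL27, with a median of 1.94, among them ZNF714 (73.1 and 64.8 CPM in CAL27 and 8.63 and 7.32 CPM in SCC25). From ZNF566 to ZNF345, 9 were lower, among them ZNF567, with no count in CAL27 and 19.9 and 20.1 CPM in SCC25. From ZNF175 to ZNF614, 8 were lower, with ZNF615 at no count in CAL27 and 11.4 and 12.9 CPM in SCC25. Zinc finger genes of a cluster resemble each other, so some reads may be shared. By whole chromosome the median difference was 0.49 on chromosome 9, 0.38 on chromosome 7 and 0.33 on chromosome 11, and -0.46 on chromosome 14.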
